A study of Danio rerio with 4 samples.

Results

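Expression of the atrioventricular canal and cardiac cushion genes vcanb, has2, bmp4, tbx2b, notch1b and klf2a was compared between SU5402-treated and DMSO-treated zebrafish embryos. The 6 genes were taken as a list of well-known markers of this region, chosen with earlier results of these data known. Every probe set that the platform annotation assigns to one of them alone was used. Each gene had 1 such probe set, so 6 of the 15502 probe sets tested, and 6 of 8793 named genes, are described.

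All embryos were wild type and were collected at 48 hours post fertilization (hpf). One group received SU5402, an inhibitor of the fibroblast growth factor (FGF) receptor kinases, at 10 μM, and its control siblings received 1% DMSO. Hearts were drawn out by syringe together with surrounding tissue, so the RNA is not from heart alone, and the labels give neither the start nor the length of the treatment. Each group had 2 replicates on 1 Affymetrix Zebrafish array each. Vials held up to 20 embryos in 3 mL, and no label ties a replicate to its own clutch. The p-values therefore cover the spread between 4 arrays, which may be purely technical. Embryos are not told apart within an array, and a lower signal from fewer cells of a type cannot be told apart from less RNA per cell.

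The atrioventricular canal is the narrow segment between atrium and ventricle where the valves form. Its myocardium makes BMP ligands and T-box repressors that keep chamber genes off, and the matrix between myocardium and endocardium swells with hyaluronan and versican. Its endocardium responds to blood flow and to Notch signals, and its cells move into this matrix to form cushions and valve leaflets. In zebrafish at this stage the 6 genes are used as markers of these steps: vcanb and has2 for the matrix, bmp4 and tbx2b for the myocardial patterning, notch1b and klf2a for the endocardium.

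The arrays could show changes for only some of the 6 genes. As a background level, 17 Tag control probe sets were used, which match no zebrafish transcript, and their 95th percentile was an intensity of 136. This is 7.25 on the log2(intensity + 16) scale used for all levels and differences here. That scale understates differences of dim probe sets. Genes tbx2b and klf2a lay above the background on all 4 arrays, vcanb on the 2 DMSO arrays, bmp4 on 1 DMSO array, and has2 and notch1b on none. Levels of different probe sets are not compared with each other.

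The myocardial, endocardial and surrounding tissue markers on the same arrays give the setting. Contractile genes of heart muscle such as myl7 and myh7 were above the background on every array, while the cardiac factor genes nkx2.5 and gata4 lay on average below it in both groups. Summed over 8 measured cardiomyocyte markers, intensity was 14897 to 20443 in DMSO and 35326 to 40752 in SU5402. Summed over 7 measured endothelial and endocardial markers, it was 1540 to 1934 in DMSO and 907 to 1110 in SU5402, with tie1, tek and erg on average below the background in both groups. Only 3 of these 7 had a mean above the background, and the brighter genes weigh most in the sum. The median log2 level of the 7 was 6.98 and 6.66 on the DMSO arrays and 7.42 and 6.79 on the SU5402 arrays. Summed over 9 fin fold mesenchyme markers, intensity was 29126 to 48762 in DMSO and 807 to 5126 in SU5402.

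**Figure D1:**
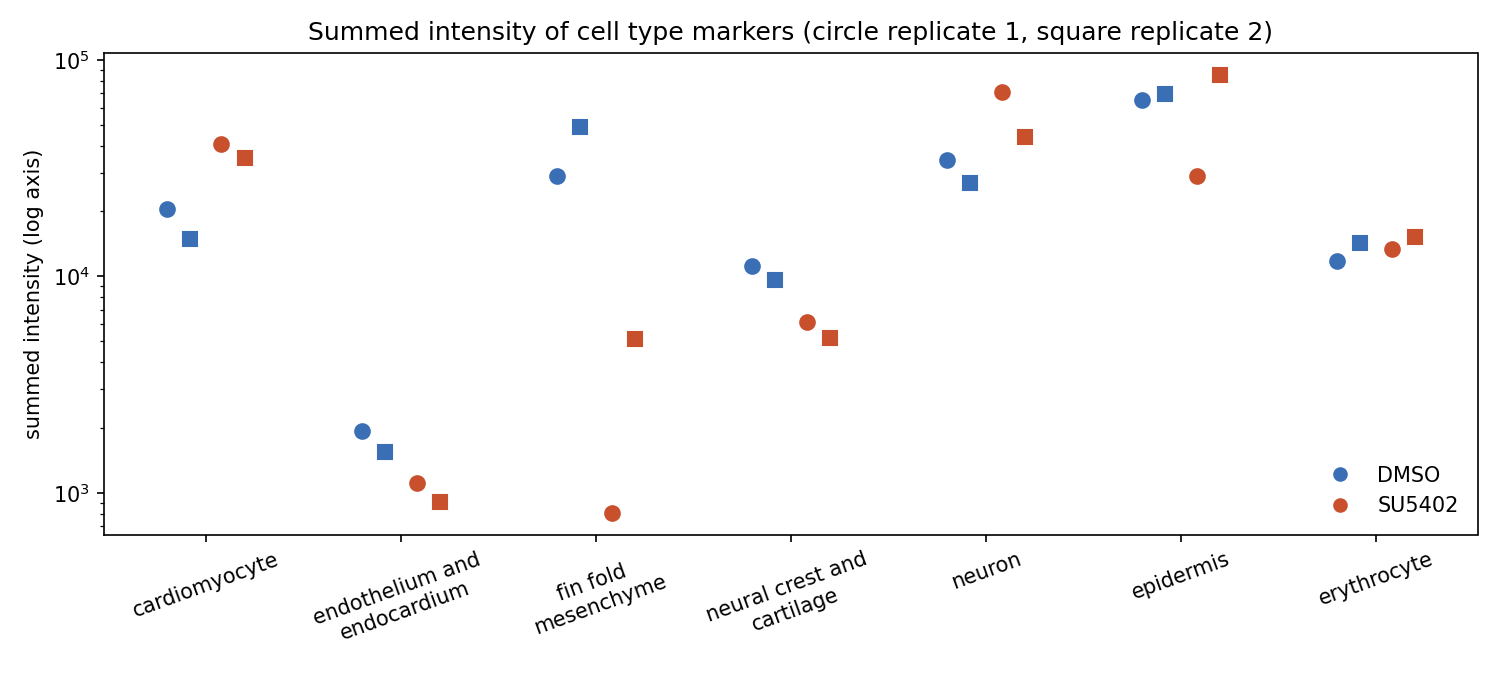
Summed linear intensity of each cell type marker list on each array (log axis), blue for DMSO and red for SU5402, circles for replicate 1 and squares for replicate 2. The cardiomyocyte and neuron sums are higher, and the endothelial, fin fold and neural crest sums lower, on both SU5402 arrays, while the epidermis and erythrocyte sums overlap between the groups.

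Of the 6 genes, 1 stood far from its control level. The versican gene vcanb was lower on both SU5402 arrays, with a difference of -3.76 log2 units. The endocardial gene klf2a and the ligand gene bmp4 were at -0.63 and -0.46 with groups that did not overlap, and tbx2b, has2 and notch1b overlapped between the groups. None of the 6 passed limma at an adjusted p under 0.05, and percent called over all probe sets was likewise 0 (lowest adjusted p 0.255). At an unadjusted p under 0.05, 1 of 6 was lower and 0 higher, against 6.21% and 6.74% of all probe sets. The groups were apart with SU5402 lower for 3 of 6 genes and with SU5402 higher for 0, against 21.8% and 22.2% of all probe sets. The median difference of the 6 genes was -0.21, beside -0.011 over all probe sets. An exact permutation test of 2 against 2 arrays cannot give a two-sided p below 0.333, so none is given per gene.

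**Figure D2:**
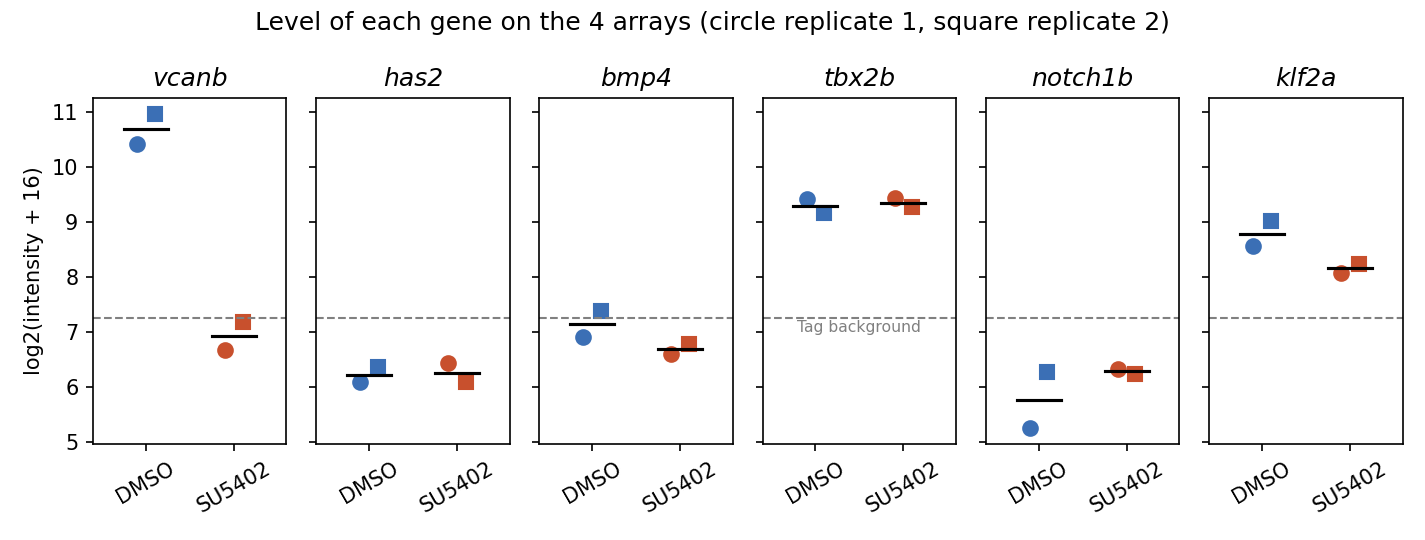
Level of each of the 6 genes on each array on the log2(intensity + 16) scale, circles for replicate 1 and squares for replicate 2, with the group mean as a bar and the Tag background (7.25) as a dashed line. Only vcanb shows a wide gap between the groups, from 10.69 to 6.93, and has2 and notch1b lie below the background on every array.

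The matrix genes come first. Gene vcanb encodes versican b, a large chondroitin sulfate proteoglycan that binds hyaluronan. Its intensity was 1349 and 1983 on the DMSO arrays and 85.8 and 129 on the SU5402 arrays. Both SU5402 values were under the background, while both DMSO values were far above it. The mean level was 10.69 ± 0.39 in DMSO and 6.93 ± 0.36 in SU5402 (log2, SD, n = 2 each). The difference was -3.76 (SE 0.37, 95% interval -4.67 to -2.86), or 13.6-fold, and its adjusted p in limma was 0.255. In size it was the 10th of the 15502 probe sets, and its unadjusted p ranked 2nd. Since neither SU5402 array lay above the background, the level there is only a bound. With the SU5402 arrays set to the background, the mean vcanb level was 10.9-fold lower, with no allowance for the spread between arrays. The near end of the 95% interval above was 7.25-fold. With any 1 array left out the difference was -3.49 to -4.04.

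Markers of fin fold mesenchyme were lower on the same arrays. Of 9 measured fin fold mesenchyme genes, 9 were lower and 8 had groups apart, beside 21.8% of all probe sets apart with SU5402 lower. The unadjusted p in limma was under 0.05 for 8 of the 9, beside 6.21% of all probe sets lower at that p. None of the 9 passed the adjusted threshold. The markers and1, and2 and and3, which encode actinodins of the fin fold, stood at 7.42, 7.11 and 6.47 on SU5402 array 1 and at 10.45, 10.31 and 11.00 on SU5402 array 2. The fin fold markers prrx1b and tbx15 stood at 6.56 and 6.01 on SU5402 array 1 and at 7.02 and 5.49 on SU5402 array 2. The corresponding vcanb levels were 6.67 and 7.18. These levels of vcanb, prrx1b and tbx15 were all under the background of 7.25. Gaps between the 2 SU5402 arrays are therefore not measured for these genes and cannot be set against those of the actinodin genes. Versican genes are also expressed outside the heart, and the part of the fin fold tissue in the vcanb difference was not tested.

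Gene has2 encodes a hyaluronan synthase, the enzyme that makes the bulk of cushion hyaluronan in mouse. Its intensity was 52.0 and 65.6 in DMSO and 70.4 and 51.6 in SU5402. The groups overlapped, and no array was above the background. The difference was 0.038 (SE 0.32, 95% interval -0.75 to 0.83, adjusted p 0.978 in limma). With 1 array left out it ran from -0.14 (without SU5402 array 1) to 0.21 (without SU5402 array 2). A probe set at this level cannot show whether has2 RNA differed.

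In the wider matrix list, 13 of 26 genes were measured, 8 lower and 5 higher, with a median of -0.38. There was no overlap between groups for 4 lower genes and 1 higher gene, beside 21.8% and 22.2% of all probe sets. Of these 13, 3 were lower and 0 higher at an unadjusted p under 0.05, beside 6.21% and 6.74%, and none passed the adjusted threshold. With values under the background raised to it the lower count was 0, and without SU5402 array 1 the higher count was 2. The 3 were tgfbi at -2.47 (SE 0.76), fbln1 at -2.28 (SE 0.49) and ugdh at -1.17 (SE 0.43). Gene ugdh encodes the dehydrogenase that makes the UDP-glucuronate from which hyaluronan is built, and zebrafish mutants in it lack valve cushions. Its levels were 8.83 and 9.70 in DMSO and 8.42 and 7.79 in SU5402. Both of its probe sets were lower (-1.17 and -1.81, each at an unadjusted p under 0.05 in limma). The second was dimmer, with a mean of 5.94, under the background.

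The matrix protein genes tgfbi and fbln1 differ in how well they were measured. Gene tgfbi stood at 12.39 and 11.91 in DMSO and at 8.50 and 10.87 in SU5402, apart but 2.37 log2 units from one SU5402 array to the other. Gene fbln1 is a fibulin gene that is also in the fin fold list. It lay below the background on 1 DMSO array and on both SU5402 arrays, so its -2.28 is not well measured. With SU5402 alone set to the background its mean was 1.23-fold lower, the spread between arrays left out. Its dimmer second probe set, with a mean under the background, was at 0.44, opposite in sign.

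The link protein gene hapln1a, whose product ties versican to hyaluronan, stood at 10.20 and 8.89 in DMSO and at 9.00 and 7.59 in SU5402. The groups overlapped, and the difference was -1.24 (SE 0.63, 95% interval -2.80 to 0.31). Of its 6 probe sets, 5 were lower, from -1.26, and 1 was higher at 0.17. Those at -1.26, -0.45 and 0.17 had means under the background. Only the probe set at -1.26 had an unadjusted p under 0.05 in limma. Gene cemip2, also known as tmem2 and encoding a hyaluronidase, was at -0.38 (SE 0.33) and the aggrecan gene acanb at 0.58 (SE 0.30), both without overlap, and acanb lay below the background in both groups. The second hyaluronan synthase gene measured, has3, was at 0.28 (SE 0.32) with overlapping groups. The versican paralogue vcana, has1 and hapln1b had no named probe set used here.

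The patterning genes follow. Gene bmp4 encodes a secreted BMP ligand of the canal myocardium. Its intensity was 104 and 149 in DMSO and 80.2 and 93.8 in SU5402. Both SU5402 values were lower than both DMSO values, but 1 DMSO array alone was above the background of 136. The difference was -0.46 (SE 0.33, 95% interval -1.27 to 0.35, adjusted p 0.629 in limma). With values under the background raised to it, -0.062 was left, and the difference was -0.22 without DMSO array 2 and -0.69 without DMSO array 1.

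Gene tbx2b encodes a T-box repressor that keeps chamber muscle genes off in the canal. It was measured well above background, with intensities of 670.0 and 555 in DMSO and 673 and 600.1 in SU5402. The SU5402 arrays lay inside or next to the DMSO range. The mean was 9.29 ± 0.19 in DMSO and 9.35 ± 0.11 in SU5402 (log2, SD, n = 2 each). The difference was 0.058 (SE 0.31, adjusted p 0.965 in limma), and its 95% interval of -0.70 to 0.82 leaves room for a level up to 1.63-fold lower or 1.76-fold higher. The sign was not settled, since -0.074 was found without DMSO array 2 and -0.022 without SU5402 array 1. Of 8 measured cardiomyocyte markers, 7 were higher and 1 lower, with a median of 1.55. For 7 the groups were apart with SU5402 higher and for 1 with SU5402 lower, beside 22.2% and 21.8% of all probe sets. The unadjusted p in limma was under 0.05 for 6 higher and 0 lower markers, beside 6.74% and 6.21%. None of these markers passed the adjusted threshold. The RNA is not from heart alone, and the part of heart muscle or of surrounding tissue in the bmp4 and tbx2b values was not tested.

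Other genes of BMP signalling and T-box patterning divided evenly by sign. Of 36 listed, 24 were measured, 12 higher and 12 lower, with a median of -0.045. Groups did not overlap for 7 lower and 6 higher genes, near the 21.8% and 22.2% of all probe sets. At an unadjusted p under 0.05, 6 were lower and 1 higher, beside 6.21% and 6.74%, and none passed the adjusted threshold. Without DMSO array 2 the lower count was 1, without SU5402 array 2 the higher count was 3, and the lower count was 3 with values under the background raised to it.

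The 6 genes lower at an unadjusted p under 0.05 in limma were bmp2a, bmpr1ab, smad5, msx1b, id1 and bambia. The ligand gene bmp2a stood at 7.86 and 9.04 in DMSO and at 5.59 and 6.75 in SU5402, both under the background. Its difference was -2.28 (SE 0.56). With SU5402 set to the background its mean was 2.31-fold lower, the spread between arrays left out. The type I receptor gene bmpr1ab was at -1.32 (SE 0.43) and the signal transducer gene smad5 at -1.21 (SE 0.33). The dimmer second probe set of smad5, with a mean under the background, was at 0.34. The homeobox gene msx1b was at -1.80 (SE 0.62).

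Readout genes did not share one direction. Gene id1, a direct BMP target that encodes an inhibitor of bHLH factors, was bright and even within groups, at 12.86 and 12.89 in DMSO and 11.83 and 11.63 in SU5402, a difference of -1.14 (SE 0.30, adjusted p 0.263 in limma). The pseudoreceptor gene bambia, whose product dampens BMP and TGF-beta signals, was at -1.18 (SE 0.33). Its levels were 9.78 and 10.25 in DMSO and 8.79 and 8.88 in SU5402. Gene id2b was higher at 1.00 (SE 0.38), and its dimmer second probe set, with a mean under the background, was at 0.79. The BMP feedback inhibitor gene smad6a was at 0.034 (SE 0.31). The ligand gene bmp2b, at -0.70 (SE 0.42), and foxn4, whose product activates tbx2b in zebrafish, at 0.41 (SE 0.47), overlapped between groups. The paralogue tbx2a and the chamber gene nppa had no named probe set used here, and tbx5a and tbx20 lay on average below the background in both groups.

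The endocardial genes are last. Gene notch1b encodes a Notch receptor of the canal endocardium. Its intensity was 22.0 and 61.3 in DMSO and 64.5 and 58.8 in SU5402. DMSO array 1 stood low and the other 3 arrays were alike, and every value was under the background. The difference was 0.52 (SE 0.42, 95% interval -0.52 to 1.56, adjusted p 0.673 in limma). Without DMSO array 1 it was 0.0056 and without DMSO array 2 it was 1.03, so a single control array set its size.

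Of 25 listed Notch genes, 19 were measured, 11 lower and 8 higher, with a median of -0.13. Groups did not overlap for 4 lower genes, near the 21.8% of all probe sets, and for 1 higher gene, beside 22.2%. At an unadjusted p under 0.05, 2 were lower, beside 6.21% of all probe sets, or 1 with DMSO array 1 or 2 left out. The first was the target gene hey1, a bHLH repressor gene, at 8.52 and 8.76 in DMSO and at 6.80 and 6.99 in SU5402. Its difference was -1.74 (SE 0.31, adjusted p 0.255 in limma). With SU5402 set to the background its mean was 2.62-fold lower, the spread between arrays left out. The second was the ligand gene jag1a, at -1.00 (SE 0.37).

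The rest of the Notch list stayed closer to the control level. The feedback gene nrarpa, whose product is induced by Notch, was at -0.38 (SE 0.30) and jag2b at -0.13 (SE 0.30), both apart. The ligand gene jag1b, at -0.49 (SE 0.39), and the target gene hey2, at -0.016 (SE 0.34), overlapped between groups. The paralogue notch1a was at 0.57 (SE 0.35), under the background in both groups. Its second probe set, also with a mean under the background, was at -0.18. Of 11 measured neuron markers, 11 were higher (median 1.00), all with groups apart, beside 22.2% of all probe sets. For 5 of them the unadjusted p in limma was under 0.05, beside 6.74%, and 0 passed the adjusted threshold. Their summed intensity was 27084 to 34291 in DMSO and 44015 to 70641 in SU5402. The part of nervous tissue in the values of the Notch list was not tested.

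Gene klf2a encodes a zinc finger transcription factor that blood flow induces in endocardium. Its intensity was 359 and 499.8 in DMSO and 252 and 285 in SU5402. Both SU5402 arrays were below both DMSO arrays, and all 4 were above the background. The mean was 8.78 ± 0.32 in DMSO and 8.15 ± 0.12 in SU5402 (log2, SD, n = 2 each). The difference was -0.63 (SE 0.33, 95% interval -1.44 to 0.18, adjusted p 0.497 in limma), or 1.55-fold, so it did not exceed the spread by this test. It was -0.40 without DMSO array 2 and -0.86 without DMSO array 1.

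Endothelial markers were mixed. With 7 measured, 5 lower and 2 higher, the list median was -0.46. For 3 of the 7 the groups were apart with SU5402 lower and for 0 with SU5402 higher, beside 21.8% and 22.2% of all probe sets. For 2 genes, both lower, the unadjusted p was under 0.05, beside 6.21% of all probe sets, and 0 passed the adjusted threshold in limma. The VEGF receptor gene kdrl was at -1.11 (SE 0.35) and the ETS factor gene fli1 at -1.86 (SE 0.33). The dimmer second probe set of fli1, with a mean under the background, was at 0.88. The 2 higher ones, tal1 and tie1, were at 0.86 (SE 0.73) and 0.097 (SE 0.39) with overlapping groups, and both DMSO arrays of each lay under the background. The part of endothelial content in the klf2a difference was not tested.

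**Figure D3:**
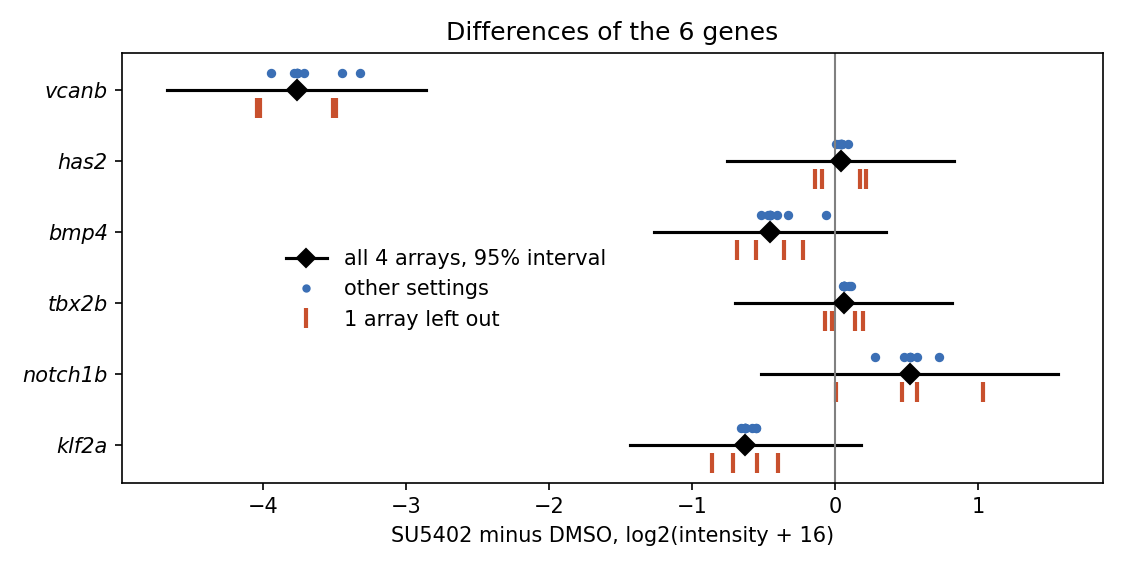
SU5402 minus DMSO of each gene (log2 scale) from all 4 arrays with its 95% interval (black), under other settings (blue points) and with 1 array left out (red ticks). The vcanb values stay between -4.04 and -3.32, those of klf2a and bmp4 stay below 0, and those of has2 and tbx2b fall on both sides of 0.

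Genes of the flow response and valve endocardium showed no common direction. Of 27 listed, 14 were measured, 9 higher and 5 lower, with a median of 0.20. Without overlap were 5 higher and 2 lower genes, beside 22.2% and 21.8% of all probe sets. The unadjusted p was under 0.05 for 1 higher and 1 lower gene, near the 6.74% and 6.21% of all probe sets. The lower count was 0 with DMSO array 1 or 2 left out and 2 without SU5402 array 2. The higher count was 0 without DMSO array 2 or SU5402 array 2 and 3 without SU5402 array 1. The transcriptional coactivator gene yap1 was the lower one, at 10.55 and 10.52 in DMSO and at 9.43 and 9.42 in SU5402. Its difference was -1.11 (SE 0.30, adjusted p 0.263 in limma). Its dimmer second probe set, with a mean under the background, was at -0.65. The endothelin gene edn1, at 1.13 (SE 0.44), was the higher one.

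The paralogue of klf2a was uneven between the SU5402 arrays. The paralogue klf2b stood at 10.17 and 11.01 in DMSO and at 9.35 and 11.59 in SU5402, so the SU5402 arrays lay on both sides of the controls (-0.12, SE 0.76). Gene klf4, a related factor also expressed in epidermis, was at 1.37 (SE 0.65), with 5.73 on SU5402 array 1 and 7.67 on SU5402 array 2, and lay on average below the background in both groups. Only SU5402 array 2 of klf4 was above the background, so its gap between the SU5402 arrays is not well measured. The matricellular gene ccn2a was at 0.78 (SE 0.41). The adhesion gene alcama, whose protein marks cushion endocardial cells, was at 0.58 (SE 0.34), with its second probe set at 0.64. All 3 had groups apart. The valve genes nfatc1, wnt9b, heg1 and dll4 had no named probe set used here.

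Genes of the epithelial-mesenchymal transition, by which endocardial cells enter the cushions, are the last list. Of 31 listed genes of this process and of TGF-beta signalling, 18 were measured, 15 lower and 3 higher, with a median of -0.34. Without overlap were 9 lower genes and 1 higher gene, beside 21.8% and 22.2% of all probe sets. At an unadjusted p under 0.05, 4 were lower and 0 higher, beside 6.21% and 6.74%, and none passed the adjusted threshold. The zinc finger repressor genes snai1a and snai2 were at -1.77 (SE 0.44) and -1.69 (SE 0.55). Levels of snai1a were 8.95 and 9.00 in DMSO and 6.65 and 7.75 in SU5402. The forkhead gene foxc1a was at -1.21 (SE 0.47) and the bHLH gene twist3 at -2.01 (SE 0.73). The Sox gene sox9b, at -1.15 (SE 0.50), had groups apart but was not among the 4 at that p. Both SU5402 arrays and 1 DMSO array of twist3 lay under the background, so the size of its difference is not well measured. With SU5402 alone set to the background its mean was 1.57-fold lower, the spread between arrays left out. The 2 dimmer probe sets of snai2 were at -1.23 and 0.14, and that of sox9b was at 0.24, all with means under the background.

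These transition genes are also expressed in neural crest and other mesenchyme. Of 12 measured neural crest and cartilage markers, 8 were lower and 4 higher (median -0.71). Of them, 5 were lower and 2 higher at an unadjusted p under 0.05, beside 6.21% and 6.74% of all probe sets, and 0 passed the adjusted threshold. Among the lower were the crest genes crestin at -1.58 and sox10 at -0.76. The 2 higher at that p were the cartilage gene cnmd at 1.42, with its second probe set at 1.16, and the crest gene foxd3 at 1.29. The summed intensity of this list was 9581 to 11129 in DMSO and 5195 to 6144 in SU5402. The part of these tissues in the result was not tested. Without DMSO array 2, or without SU5402 array 1, 2 genes of the transition list were lower at an unadjusted p under 0.05.

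**Figure D4:**
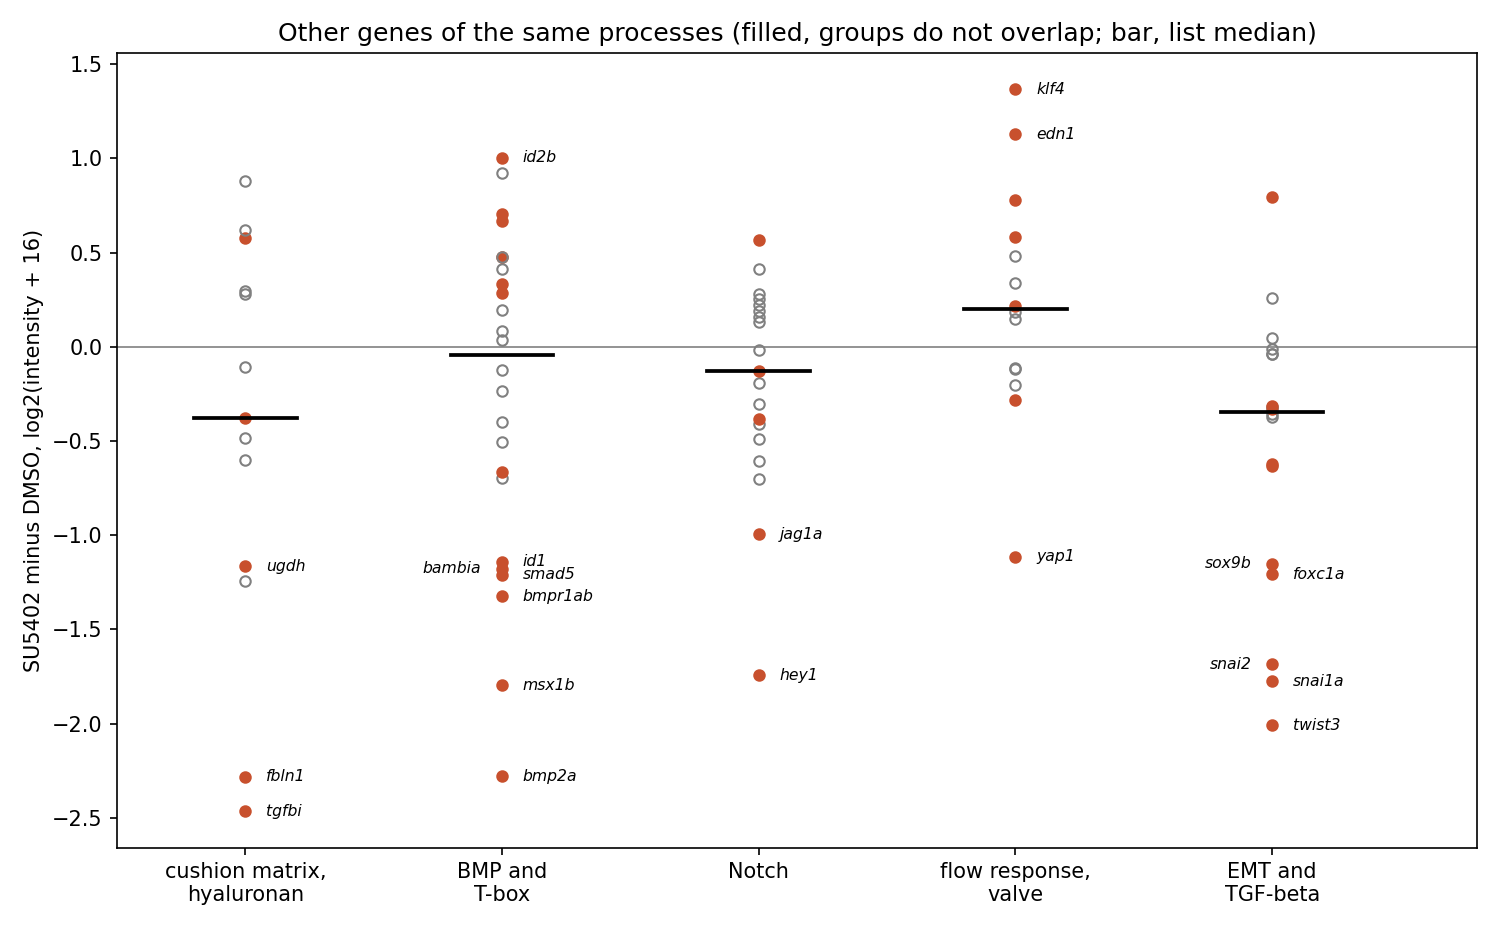
SU5402 minus DMSO (log2 scale) of each measured gene in the 5 lists of related genes, filled where the groups do not overlap, with the list median as a bar. The medians run from -0.38 for the matrix list to 0.20 for the flow response list, and the named genes are those apart by over 0.9 log2 units.

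Over the 5 lists together, 88 genes were measured, with a median of -0.12. The groups were apart with SU5402 lower for 26 and with SU5402 higher for 14, beside 21.8% and 22.2% of all probe sets. At an unadjusted p under 0.05, 16 were lower and 2 higher, beside 6.21% and 6.74%, and 0 passed the adjusted threshold in limma. The lists were chosen with earlier results of these data known, so these counts are a description and not a test. Each gene is given by its brightest probe set, while the shares are over all probe sets.

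The profile of each of the 6 genes over the 4 arrays was compared with those of 5847 named genes whose mean lay above the background, by Euclidean distance between levels centred on the gene's mean. The profiles nearest to vcanb were etv5b (distance 0.34 log2 units), fgfbp2a (0.68) and prrx1b (0.75). Gene etv5b encodes an ETS factor induced by FGF signalling, and its levels were 10.96 and 11.35 in DMSO and 7.21 and 7.31 in SU5402. Nearest to klf2a were trip10a (0.026), si:dkey-73n10.1 (0.069) and grtp1a (0.074). Nearest to bmp4 were nck1b (0.084), pgp (0.088) and rab1ab (0.11), and nearest to tbx2b were eif5 (0.023), ift80 (0.030) and tor1 (0.047). Nearest to has2 were cntfr (0.030), fnbp4 (0.036) and senp7b (0.063), and nearest to notch1b were ssh2b (0.036), ptk2ab (0.11) and gadd45bb (0.17). Both has2 and notch1b lay under the background on every array, and bmp4 was above it on 1 array only. The profiles of these genes are therefore not well measured, and their neighbours cannot be read as genes of shared expression. With 4 arrays, small differences such as those of tbx2b or has2 have near matches among many genes, and these distances carry no test. The differences of etv5b, fgfbp2a and prrx1b were -3.90, -3.51 and -4.42, so their nearness to vcanb largely restates the size of its difference. Both SU5402 arrays of vcanb, fgfbp2a and prrx1b lay under the background, as did SU5402 array 1 of etv5b. Genes fgfbp2a and prrx1b had a mean above it only through their DMSO arrays. These differences and distances are therefore not well measured either.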

How the data were processed

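Gene expression was measured on 4 Affymetrix arrays, 2 per treatment, grouped by the titles. Each deposited value is the linear intensity of 1 probe set on 1 array. How the authors summarised and scaled the intensities is not given in the sources used here. Each array had a mean of 500 after trimming 2% at each end, and 55.2% to 56.1% of probe sets lay above the Tag background. The number of arrays limits the precision.

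Left out were 115 control probe sets. Of 15502 others, 10795 had 1 symbol, 135 several and 4572 none, and 10711 were matched to a current gene by Entrez identifier (RefSeq table of assembly GRCz12tu, names only). A gene with several probe sets is given by the one with the highest mean. Values were taken to log2(intensity + 16) and fitted with limma (version 3.58.1 under R 4.3.3) on treatment alone, and p-values were adjusted by Benjamini-Hochberg over all probe sets, two-sided, at 0.05. The fit was tested on simulated data.

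The 6 genes and all lists were chosen with earlier results of these data known. Named from each list are up to 5 genes with groups apart and the lowest p, and set paralogues and partners. Genes msx1b, id2b and smad6a, the markers and the further probe sets were named after their values were seen. A level under the Tag background in all arrays of a group is treated as a bound. Folds with SU5402 set to the background leave out the spread between arrays. Detection calls were not used. Alternatives were a replicate block, pseudocounts of 1 and 64, quantile normalisation, median centring, leaving out the dimmest 25%, a floor at the Tag background, a gene's probe sets averaged, a variance trend and each array left out. No sequences are printed, since no sequence table was used.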

Additional observations from a re-analysis of the deposited data

How the results depend on the processing

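All 6 genes stayed above an adjusted p of 0.05 in every alternative run. The vcanb difference kept its sign throughout (-4.04 to -3.32), as did klf2a (-0.86 to -0.40), bmp4 (-0.69 to -0.062) and notch1b (0.0056 to 1.03). With 1 array left out, tbx2b ran from -0.074 to 0.19 and has2 from -0.14 to 0.21, both with turned signs (tbx2b -0.074 and -0.022, has2 -0.094 and -0.14), and 3 to 5 of the 6 genes were lower. With the floor, has2 and notch1b have no difference to measure, and notch1b is among the dimmest 25%. Replicate numbers are shared between groups, but nothing says that they pair the arrays (correlation of same-numbered deviations 0.28); with a replicate block vcanb stayed at -3.76 (adjusted p 0.12 in limma), 2582 probe sets in place of 2008 had an unadjusted p under 0.05, and the transition list had 1 higher gene. Over all probe sets, 21 passed the adjusted threshold in limma with the floor, while 1490 had an unadjusted p under 0.05, and 0 to 3 with 1 array left out. At an unadjusted p under 0.05, 951 to 3011 did so with 1 array left out; the lone array of a group is then assumed to vary like the other group. In that setting the lower counts were 1 to 7 for BMP, 1 to 2 for Notch, 0 to 2 for flow response and 2 to 4 for transition genes, and 3 to 4 for matrix genes. The higher counts were 0 to 2 for matrix, 0 to 3 for BMP and 0 to 3 for flow response genes. With the floor, 0 matrix, 3 BMP and 2 transition genes were lower, and 0 BMP and 0 flow response genes higher. With a pseudocount of 1, 1 Notch gene was lower, and 0 BMP and 0 flow response genes higher. The causes of these moves were not tested.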

Other observations

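The SU5402 arrays differed from each other more than the DMSO arrays did. Among the 88 related genes, 22 were more than 1 log2 unit apart between the SU5402 arrays, 15 of them higher on array 2, and 7 were that far apart between the DMSO arrays. Over all probe sets the shares were 17.1% and 8.21%. Fibronectin gene fn1b stood at 10.91 on SU5402 array 1 and 13.40 on array 2, and the periostin gene postnb at 11.68 and 13.43. The summed intensity of 11 epidermis markers was 29160 on SU5402 array 1 and 85136 on array 2, beside 65449 and 69281 in DMSO. This comparison was chosen after the values were seen, and the part of epidermis in it was not tested.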
